A study of Homo sapiens with 34 samples.

Results

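LNCaP, a line from a lymph node metastasis that the study uses as a model of early prostate adenocarcinoma, was compared with RWPE, a line of non-tumorigenic prostate epithelium, both grown on tissue culture plastic in their own control medium. The comparison rests on 4 of the series' 34 RNA-seq libraries, chosen by their labels alone: LNCaP plastic control replicates 1 and 2 and RWPE plastic control replicates 1 and 2. The series as a whole asks what a mineral coating of amorphous calcium phosphate (ACP), a stand-in for bone, does to gene expression in prostate cells. The 4 libraries of the same lines on ACP in control medium share no library with the main comparison, and they served as a second measurement of the line difference. LNCaP grew in RPMI with fetal bovine serum, glucose, HEPES and pyruvate. RWPE grew in serum-free keratinocyte medium with EGF and bovine pituitary extract, so line and medium cannot be told apart in any value given here. Both media held penicillin and streptomycin, and neither group received stripped serum or added hormone. The labels call the plastic cultures continuous culture, while the treatment protocol describes passage and 4 days of growth. The ACP cultures were labelled day 4. Each line is 1 established line standing for a kind of cell, and nothing in the labels says that replicates came from separate cultures. The p-values rest on the spread between replicate libraries within the groups of the series, and that spread may be technical. The fit held 17 groups, of which VCaP cells on plastic in stripped serum had 1 library and added no spread.

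Prostate glands are lined by tall secretory luminal cells that rest on a layer of basal cells. Basal cells carry the transcription factor p63, keratins 5 and 14, and the hemidesmosome proteins that anchor the epithelium to its basement membrane. Luminal cells carry keratins 8 and 18 and, under androgen, make secreted proteases such as prostate-specific antigen. Prostate adenocarcinoma is as a rule luminal in character and has lost its basal layer. RWPE cells were immortalised from normal adult prostate epithelium with papillomavirus genes and are known to keep basal traits in culture, whereas LNCaP is known as an androgen-dependent luminal line.

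Total counts were 38.2 M to 44.8 M in the 4 libraries, within a range of 15.4 M to 44.8 M over the series. Replicates correlated across genes at Pearson's r of 0.998 in LNCaP and 0.993 in RWPE, and none was a copy of another, as the chi-square per gene between them was 10.73 and 36.71. In the RWPE plastic columns 16 values of 12 genes ran up to 44889, the form of spreadsheet dates. They lay at least 9.89 times above every RWPE library on ACP. The genes were left out, among them MARCKS, DECR1 and SEPW1. The 4 other values in that range were kept, the nearest being ACTG1 at 2.49 times the highest RWPE library on ACP. Markers of other cell types were low except for single genes, in CPM, the usual unit of counts scaled to the library total. Summed leukocyte markers reached 386 to 418 CPM in LNCaP and 10.9 to 14.6 CPM in RWPE. LCP1, an actin-bundling protein also made by many cancer cells, was alone at 395 and 362 CPM in LNCaP, where CD3E was at 0. Summed fibroblast markers were 24.4 to 29.4 and 81.1 to 86.9, endothelial markers 30.3 to 33 and 1.44 to 1.68, smooth muscle markers 22.1 to 24.3 and 16.5 to 21.8, and neuron markers 8.36 to 8.93 and 17.4 to 19.1. Of 10 liver markers none was at 0 in either line on plastic (summed 18.4 to 25.9 in LNCaP and 19.7 to 21.8 in RWPE), and the sum was 2.22 to 4.13 on ACP over both lines. No liver marker differed between the lines on plastic. The part of these cell types in any result was not tested.

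Of 17313 genes tested, 9933 (57.4%) passed an adjusted p of 0.05 in edgeR's quasi-likelihood test, 5112 (29.5%) with higher and 4821 (27.8%) with lower levels in LNCaP. All adjusted p-values below are from that test and run over all 17313 genes, log2 differences are LNCaP minus RWPE with their standard error, and CPM of single genes use TMM-scaled library sizes. A log2 difference of at least 5 was reached by 539 called genes in LNCaP and 859 in RWPE, together 8.07% of those tested. The median gene differed by 0.01. The 2 libraries of a line lay above both libraries of the other for 7602 genes in LNCaP (43.9%) and 7323 in RWPE (42.3%), so a lack of overlap is common here. With so many genes called, a list of genes is described below by its counts and its median against these shares. Nothing more is read from it. Members and lists were chosen with earlier results of these data known, so their counts are a description and not a test. Of 549 called genes on the lists or under the naming rule, 83 lost the call when 1 of the 4 libraries was left out. Genes for which this happened are marked as such where they are named. In 115 of the 549 the fold moved by over 1.5 times without 1 library, most of all without LNCaP replicate 2 in 44, RWPE replicate 2 in 43, LNCaP replicate 1 in 21 and RWPE replicate 1 in 7. The log2 difference without that library is given beside such genes where their difference is printed.

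The largest rises among abundant genes were a mix of lineage, antigen and enzyme genes. PEG3, an imprinted zinc finger gene, was read at 193 and 163 CPM in LNCaP and at 0.0266 and 0.507 CPM in RWPE (log2 9.33 ± 0.67, adjusted p = 1.64e-11, or 8.42 without RWPE replicate 1 and 12.48 without replicate 2). GPR158, an orphan receptor, had 0 and 17 reads in RWPE and 6339 and 5457 in LNCaP, so its log2 difference of 9.15 has no upper bound without RWPE replicate 2. TMEFF2, a membrane protein of prostate and brain, was at 8.59 (7.76 without RWPE replicate 1 and 10.62 without replicate 2). ALOX15, a lipoxygenase, and HPN, the membrane protease hepsin that is a known marker of prostate cancer, had log2 differences of 8.39 (7.54 without RWPE replicate 1 and 10.72 without replicate 2) and 8.19 (7.32 without RWPE replicate 1 and 10.65 without replicate 2). ACKR3, a scavenging receptor for CXCL12, stood at 125 and 149 CPM against 0.159 and 0.760 CPM. The cancer-testis antigens MAGEA3 (8.41, or 7.76 without RWPE replicate 1 and 9.62 without replicate 2) and MAGEA6 (8.35, or 8.94 without RWPE replicate 2) are near-identical copies, so the split of reads between them is uncertain. In the other direction DSG3, COL17A1, KRT7, THBD, KRT5, TP63, KRT6A, KRT16, MIR205HG, INPP5D and KRT14 were among the 12 with the largest differences, from -10 for DSG3 to -9.15 for KRT14. Keratins, desmosome and hemidesmosome genes and p63 make up most of that list. THBD, the thrombin cofactor thrombomodulin, was at 0.127 and 0.199 CPM in LNCaP and 117 and 165 CPM in RWPE. INPP5D, a lipid phosphatase best known from blood cells, was at 0.296 and 0.420 and 248 and 193 CPM.

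For 40 genes LNCaP had at least 1 CPM and RWPE had 0 reads in both plastic libraries, and for 61 genes the reverse held. The most abundant of the first kind were CAPN13, OPRK1, PABPC5, UPK3A and TRPM2-AS. CAPN13, a calpain protease, had 923 and 825 reads in LNCaP, at least 485-fold above a limit of 3 counts over the RWPE group. UPK3A, a uroplakin of urothelial surfaces, had 264 and 269 reads. TRPM2-AS is an antisense RNA, and counting is not stated to use strand. Of the second kind the most abundant were HOXD10, LOC440173, ANXA8L1, ANXA8 and SERPINB13. HOXD10 had 808 and 870 reads in RWPE and was at least 671-fold lower in LNCaP. ANXA8L1 and ANXA8 are near-identical copies and cannot be separated with certainty. These limits cover counting error only.

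The basal program was high in RWPE and far lower in LNCaP. Of 18 basal genes 17 were lower in LNCaP and none was higher, with a median log2 difference of -7.89 against 0.01 over all genes. KRT5, a keratin of basal cells, was read at 5.06 and 13 CPM in LNCaP and at 7243 and 7755 CPM in RWPE (log2 -9.7 ± 1.61, adjusted p = 1.37e-05; -10.56 to -9.19 without 1 library). Its partner KRT14 was at 3.49 and 6.08 CPM and 2564 and 2883 CPM (log2 -9.15 ± 1.07, adjusted p = 7.44e-08). The RWPE libraries differed by little from each other in both keratins, while LNCaP replicate 2 read more of each than replicate 1. TP63, the regulator of basal identity, was at 0.148 and 0.310 CPM in LNCaP and at 205 and 179 CPM in RWPE (log2 -9.69 ± 0.6, adjusted p = 1.38e-12, or -10.32 without LNCaP replicate 2). Hemidesmosome genes followed the same direction. COL17A1, a collagen of these junctions, was at 0.952 and 2.1 CPM and 1541 and 1363 CPM (log2 -9.89 ± 0.72, adjusted p = 2.02e-11, or -10.6 without LNCaP replicate 2), and ITGB4, the hemidesmosome integrin, at 5.95 and 9.35 CPM and 1853 and 1671 CPM (log2 -7.85 ± 0.62, adjusted p = 8.87e-11). LAMB3, a chain of the basement membrane laminin that this integrin binds, differed by -5.78, while LAMA3, another chain of that laminin, was at 128 and 132 CPM and 156 and 189 CPM and did not pass (adjusted p = 0.194). ITGA6, the partner of ITGB4, had the smallest difference of the 17, at 84.6 and 79.4 CPM against 479.6 and 488 CPM (-2.56). CAV1, of caveolae, and CDH3, the basal P-cadherin, were also low in LNCaP at 0.995 and 0.553 and 3.83 and 4.29 CPM.

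Genes of stratified squamous epithelium, which the labels do not mention, were read in RWPE at high levels. Of 30 squamous genes 27 were lower in LNCaP and 2 higher, with a median of -7.2. DSG3, a desmosomal cadherin, was at 0.0423 and 0.199 CPM in LNCaP and 126 and 127 CPM in RWPE (log2 -10 ± 0.51, adjusted p = 5.46e-14, or -9.3 without LNCaP replicate 1 and -11.42 without replicate 2). PKP1, which anchors desmosomal cadherins, was at 4.78 and 7.72 CPM and 2336 and 2151 CPM, and SFN, a 14-3-3 protein of stratified epithelium, at 4.55 and 5.33 CPM and 760.2 and 727 CPM. Those 2 genes were abundant in both RWPE libraries. The cornified envelope genes were scarcer. SPRR1B had 0 reads in LNCaP and 302 and 455 in RWPE, at least 301-fold lower, and IVL was at 1.65 and 4.08 CPM in RWPE. TGM1, the crosslinking enzyme, was at 4.17 and 3.85 CPM in LNCaP and 68.7 and 89.1 CPM in RWPE. The 2 members that were higher in LNCaP, KRT6C (2.26) and S100A7 (3.59), were at most at 7.25 CPM on average, and KRT6C shares most of its sequence with KRT6A and KRT6B. KRT10, a keratin of differentiating epidermis, did not pass (adjusted p = 0.0965).

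The families that hold these genes were divided rather than uniform. Of 29 keratins tested (of 55 in the table) 21 were lower in LNCaP and 3 higher, and KRT8 did not differ past the threshold at 507 and 463 CPM in LNCaP and 485 and 549.7 CPM in RWPE (adjusted p = 0.743). KRT18, its partner, was lower in LNCaP at 479 and 459.7 CPM against 784 and 865 CPM (log2 -0.81 ± 0.2, adjusted p = 0.00129). KRT7 and KRT19, keratins of simple epithelia, were far lower in LNCaP (-9.78 and -4.86, KRT7 at -10.45 without LNCaP replicate 2). Of 13 desmosome genes 7 were lower and 2 higher (1 without RWPE replicate 1). DSC2 was higher in LNCaP at 78.3 and 71.3 CPM against 39.3 and 38.7 CPM, and DSG2, the desmoglein of simple epithelia, did not pass at 253 and 235 CPM and 255 and 272 CPM (adjusted p = 0.692). Of 10 B-type serpins tested 9 were lower, with SERPINB6 the exception at 1.71. Of 13 connexins, the proteins of gap junctions, 10 were lower, among them GJB2 (-4.69) and GJA1 (-8.18), while GJB1 (3.22) and GJD3 (2.36) were higher. Of 15 S100 genes 10 were lower. S100A6, a calcium-binding protein, was at 2.18 and 2.3 CPM and 496 and 479.5 CPM, and S100P was the opposite, at 30.6 and 29.6 CPM and 3.91 and 6.74 CPM. Of 14 claudins, which seal tight junctions, 6 were higher and 5 lower (2 or 3 lower without 1 library, whichever it was). CLDN3, CLDN4 and CLDN7 were higher in LNCaP (6.01, 2.43 and 1.47) and CLDN1 was lower (-5.58).

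Luminal identity genes were called in both directions, more of them higher in LNCaP. Of 18 luminal genes 11 were higher in LNCaP, 5 were lower and 2 did not pass, with a median of 1.9. Over all genes tested 29.5% were higher and 27.8% lower, so the lower calls were near that share. Most of the regulators on this list were far higher. FOXA1, a pioneer factor that opens chromatin at androgen-responsive enhancers, was read at 674 and 601 CPM in LNCaP and 12.6 and 17 CPM in RWPE (log2 5.43 ± 0.25, adjusted p = 1.15e-14). HOXB13, a homeobox factor of the prostate, was at 764 and 718 CPM and 4.49 and 8.79 CPM (log2 6.8 ± 0.33, adjusted p = 3.09e-14), and GATA2 at 309 and 304 CPM and 9.49 and 11 CPM (log2 4.9 ± 0.25, adjusted p = 6.92e-14). SPDEF, an ETS factor of secretory epithelium, differed by 6.88 (6.16 without RWPE replicate 1 and 8.36 without replicate 2), and CREB3L4, a membrane-bound factor abundant in prostate, by 3.37. In these 5 regulators both LNCaP libraries lay far above both RWPE libraries. Genes of cell structure and adhesion went both ways, from CLDN3 at 6.01 to KRT19 at -4.86. CDH1, E-cadherin, was at 834 and 872 CPM and 543 and 503 CPM, a difference of 0.71, and EPCAM was lower in LNCaP at -0.57, a call lost without LNCaP replicate 2 or RWPE replicate 1. GATA3, a factor of luminal cells in breast and prostate, was lower in LNCaP at 0.190 and 0.376 CPM against 9.54 and 11.1 CPM (log2 -5.17 ± 0.53, adjusted p = 2.04e-08), and so was CD24 (-2.02). PSCA, a prostate surface antigen, did not pass (adjusted p = 0.502).

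**Figure D1:**
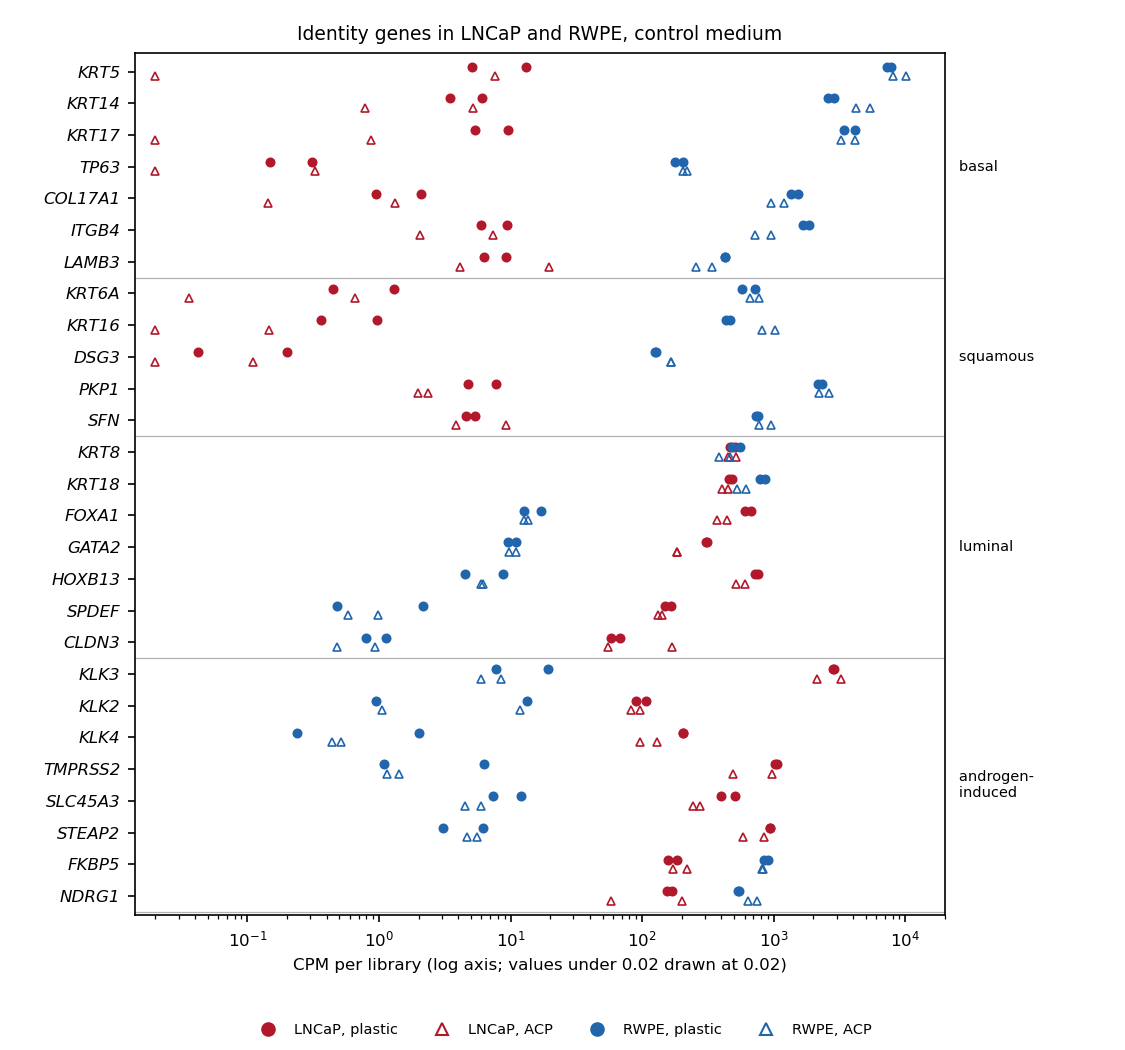
CPM in each library (horizontal log axis; values under 0.02 drawn at 0.02) for basal, squamous, luminal and androgen-induced genes, with LNCaP in red, RWPE in blue, plastic as filled circles and ACP as open triangles. The basal and squamous genes sit far to the right in RWPE, KRT8 overlaps between the lines, and FKBP5 and NDRG1 lie to the right in RWPE, unlike KLK3 and TMPRSS2.

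Genes that androgen induces in prostate cells were mostly higher in LNCaP, whose serum-containing medium was not stripped of hormones. Of 20 such genes 13 were higher, 3 lower and 4 did not pass, with a median of 3.51. KLK3 encodes prostate-specific antigen, a serine protease of semen, and it was among the genes most abundant in LNCaP. It was read at 2866 and 2819.5 CPM in LNCaP and at 7.71 and 19.1 CPM in RWPE (log2 7.73 ± 0.68, adjusted p = 6.87e-10; 7.19 to 8.53 without 1 library). The 250 bases before its start (RefSeq, GRCh38.p14, KLK3 at chr19:50854665-50854914, plus strand) are shown because they hold the half-site of steroid receptors for androgen and related hormones, AGAACA, in capitals at 170 bases before the start.
KLK3: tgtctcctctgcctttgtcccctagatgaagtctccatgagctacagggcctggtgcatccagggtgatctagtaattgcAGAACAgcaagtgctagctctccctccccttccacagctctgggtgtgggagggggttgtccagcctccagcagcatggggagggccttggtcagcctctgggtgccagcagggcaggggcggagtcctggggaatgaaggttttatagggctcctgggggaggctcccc
Among 14 list members matched in the promoter table, KLK3 was the 1 whose window from 250 bases before to 50 after the start held AGAACA on either strand (7.14%), against 15.1% of all 27305 promoters. A match of this kind describes letters and not a bound site.

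TMPRSS2, a membrane serine protease, was at 1058 and 1013 CPM in LNCaP and 1.09 and 6.23 CPM in RWPE (log2 8.14 ± 0.59, adjusted p = 2.19e-11, or 7.35 without RWPE replicate 1 and 9.89 without replicate 2). KLK2, a neighbour of KLK3 with a closely related protease, was at 90.5 and 107 CPM and 0.957 and 13.4 CPM (log2 3.78 ± 0.74, adjusted p = 1.11e-04; 2.86 to 6.68 without 1 library). RWPE replicate 2 lay above replicate 1 in KLK3, TMPRSS2, KLK2 and ACPP, and the sizes of the KLK2 and ACPP differences rest on that library. ACPP, prostatic acid phosphatase, had 1.41 and 10.4 CPM in RWPE and a log2 difference of 3.56, which was 5.63 without RWPE replicate 2 (KLK2 6.68). STEAP2, a metalloreductase (7.66), KLK4 (7.5, or 6.65 without RWPE replicate 1 and 9.72 without replicate 2), SLC45A3, the antigen prostein (5.56), ABCC4, a drug and prostanoid exporter (4.25), and HPGD, which degrades prostaglandins (3.79), were higher too. Not every member followed. FKBP5, a chaperone partner induced by androgen and also by glucocorticoid, was lower in LNCaP at 186 and 158 CPM against 846 and 901 CPM (log2 -2.35 ± 0.29, adjusted p = 2.23e-07). NDRG1, a stress-responsive gene, was lower at 154 and 169 CPM against 534 and 539 CPM (log2 -1.73 ± 0.42, adjusted p = 0.001). ELL2, an elongation factor, was lower by the test (-1.04), a call lost without LNCaP replicate 2 or RWPE replicate 2, and PMEPA1 did not pass (adjusted p = 0.851).

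Kallikreins were called in both directions. Of 13 kallikreins tested 4 were higher in LNCaP and 7 lower, against 29.5% higher and 27.8% lower over all genes tested. KLK2, KLK3 and KLK4, known from prostate, were higher, and so was KLK15, which had 157 and 100 reads in LNCaP and 0 in RWPE, at least 71.1-fold above 3 counts over the group. KLK5, KLK8 and KLK10, proteases of shedding skin, were lower. KLK5 had 0 and 3 reads in LNCaP against 820 and 1082 in RWPE, KLK8 0 and 1 against 186 and 240, and KLK10 3 and 1 against 476 and 559. KLK6 and KLK11, the latter also known from prostate, were lower as well, at 1.12 and 2.25 and 2.05 and 2.18 CPM in RWPE and 1 read in each LNCaP library. Surface antigens used as targets in prostate cancer were higher in 5 of 9 cases and lower in 1. FOLH1, prostate-specific membrane antigen, was at 1945 and 1925 CPM and 4.49 and 12.2 CPM (log2 7.86 ± 0.51, adjusted p = 3.47e-12, or 8.75 without RWPE replicate 2), and STEAP1 at 340.1 and 347 CPM and 3.72 and 6.21 CPM. CD276, an immune checkpoint ligand, was higher by 0.57, a call that no fit on 3 of the 4 libraries kept.

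**Figure D2:**
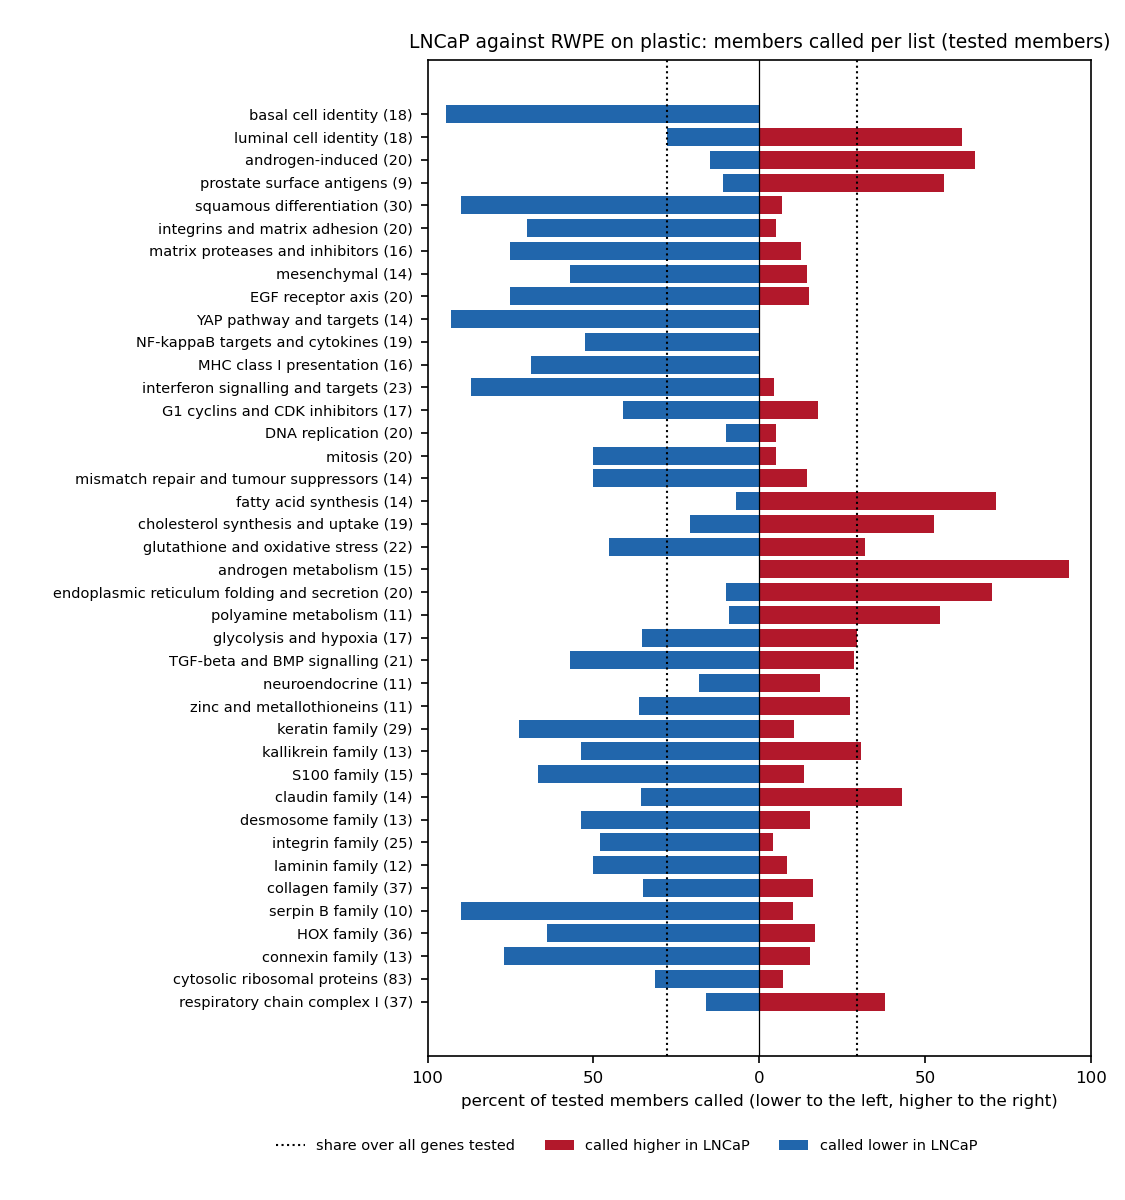
Percent of tested members of each list called higher (red, to the right) or lower (blue, to the left) in LNCaP on plastic, with the number tested in brackets and dotted lines at the shares over all genes tested (29.5% higher, 27.8% lower). Basal, squamous, YAP and interferon genes extend far to the left, and androgen metabolism, fatty acid and endoplasmic reticulum genes far to the right.

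Genes of adhesion to matrix were mostly lower in LNCaP. Of 20 integrin and matrix adhesion genes 14 were lower in LNCaP and 1 higher, with a median of -3.07. ITGA3, a laminin-binding integrin chain, was read at 19.1 and 19.9 CPM in LNCaP and 1243 and 1214 CPM in RWPE (log2 -5.98 ± 0.4, adjusted p = 6.17e-12). CD44, the hyaluronan receptor, was at 4.53 and 4.53 CPM and 341 and 374 CPM (log2 -6.3 ± 0.5, adjusted p = 9.21e-11), and TNC, the matrix protein tenascin-C, at 2.79 and 2.45 CPM and 249.8 and 216 CPM. The common beta chain ITGB1 (389 and 384 CPM and 542 and 456 CPM) and ITGAV (111 and 105 CPM and 91.3 and 76.5 CPM) did not pass. FN1, fibronectin, was the member that was higher in LNCaP, at 774 and 891 CPM against 169.6 and 366 CPM (log2 1.64 ± 0.35, adjusted p = 3.26e-04, or 2.29 without RWPE replicate 2). Among 12 laminin chains 6 were lower and 1 higher: LAMB2 was at 240.1 and 249 CPM in LNCaP and 3.3 and 5.17 CPM in RWPE (log2 5.85 ± 0.37, adjusted p = 2.5e-12). Of 37 collagens tested 13 were lower and 6 higher, against 27.8% lower and 29.5% higher over all genes tested. COL4A1 and COL4A2 of the basement membrane (-6.32 and -4.66) and COL7A1 of anchoring fibrils (-5.01) were lower, and the partners COL6A1 and COL6A2 of microfibrils were higher (4.9 and 4.53).

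Of 16 matrix proteases and inhibitors tested 12 were lower in LNCaP and 2 higher. MMP14, a membrane-bound metalloprotease, was at 2.96 and 1.5 CPM in LNCaP and 495 and 452 CPM in RWPE (log2 -7.72 ± 0.41, adjusted p = 8.95e-14, or -8.31 without LNCaP replicate 1). The plasminogen activator PLAU and its receptor PLAUR were both lower in LNCaP (-6.69 and -5.21). TIMP3 was at 0.169 and 0.177 CPM and 58 and 78.4 CPM, while TIMP2 was at 74.5 and 73.2 CPM and 88.5 and 87.7 CPM and did not pass (adjusted p = 0.532). The 2 higher members, MMP7 and MMP13, averaged 1.66 and 1.02 CPM in LNCaP. Of 14 mesenchymal genes 8 were lower and 2 higher, TWIST1 and SNAI1, and neither of the higher calls stood without LNCaP replicate 1 or either RWPE library. VIM, vimentin, was at 26 and 24.6 CPM and 233 and 195 CPM (log2 -3.08 ± 0.42, adjusted p = 7.7e-07), and SNAI2, a repressor also made by basal cells, at 1.86 and 1.95 CPM and 51 and 80.9 CPM (log2 -5.11 ± 0.5, adjusted p = 3.36e-09). CDH2, N-cadherin, was under 1 CPM in all 4 libraries.

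The EGF receptor axis, whose ligand EGF is in the RWPE medium and is not listed for the LNCaP medium, was lower in LNCaP at the level of receptor, ligands and feedback genes. Of 20 genes 15 were lower and 3 higher, with a median of -4.06. EGFR was read at 44.3 and 44.1 CPM in LNCaP and 430.2 and 364 CPM in RWPE (log2 -3.17 ± 0.46, adjusted p = 2.08e-06). Of its ligands, TGFA was at 3.26 and 4.27 CPM and 106 and 113 CPM (log2 -4.87 ± 0.34, adjusted p = 1.33e-11), AREG at 0.0423 and 0.111 CPM and 30.2 and 27.6 CPM (log2 -8.49 ± 0.5, adjusted p = 1.34e-12, or -9.29 without LNCaP replicate 2), and EREG at 0.0212 and 0.0884 CPM and 65.7 and 53.5 CPM. NRG1, a ligand of the related ERBB3, had 0 reads in LNCaP and 208 and 206 in RWPE, at least 166-fold lower. The ligand EGF went the other way, at 31.2 and 28.6 CPM in LNCaP and 0.159 and 0.203 CPM in RWPE (log2 7.33 ± 0.37, adjusted p = 4.52e-14). Targets of the MAP kinase pathway below the receptor were lower as well. DUSP6, a phosphatase that damps ERK, was at 0.910 and 0.929 CPM and 62.3 and 47.5 CPM (log2 -5.89 ± 0.44, adjusted p = 3.29e-11), and ETV4, ETV5, FOSL1 and PHLDA1 differed by -6.6, -6.03, -6.53 and -5.62. LRIG1, a negative regulator of the receptor, was higher in LNCaP at 166 and 158 CPM against 7.36 and 9.73 CPM (log2 4.24 ± 0.31, adjusted p = 2.84e-11). The related receptors ERBB2 and ERBB3 were higher in LNCaP (1.15 and 2.27). DUSP4 was called higher (0.87), a call lost without either LNCaP library or RWPE replicate 1.

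Of 14 genes of the YAP pathway, which reads cell spreading and tension, 13 were lower in LNCaP and none was higher. The coactivator WWTR1, or TAZ, was at 2.48 and 2.54 CPM in LNCaP and 72.1 and 71.1 CPM in RWPE (log2 -4.83 ± 0.37, adjusted p = 4.53e-11). Its relative YAP1 was at 134 and 132 CPM and 236 and 225 CPM, a difference of -0.8 whose call was lost without either LNCaP library or RWPE replicate 1. AXL, a receptor kinase and target of the pathway, was at 0.550 and 0.531 CPM and 161 and 143 CPM (log2 -8.12 ± 0.48, adjusted p = 7.36e-13), and AMOTL2 at 11.6 and 9.97 CPM and 333 and 400.5 CPM. CYR61, the most used readout, differed by less (-1.95), and CTGF was called lower (-3.11; -3.91 to -2.0 without 1 library) at 1.09 and 3.62 CPM in RWPE, a call lost without replicate 2 of either line. ANKRD1 did not pass and was under 0.1 CPM in all 4 libraries.

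Most genes of interferon signalling were lower in LNCaP, the kinase JAK1 and antiviral targets among them. Type I interferon acts through the kinases JAK1 and TYK2 and a complex that holds STAT2 and IRF9, which binds a GAAA-repeat element at its target genes. Of 23 genes 20 were lower in LNCaP and 1 higher, with a median of -3.69. The element is shown in the 250 bases before the starts of 3 targets (RefSeq, GRCh38.p14, all plus strand), with matches in capitals to GAAA, any 2 bases and GAAA, or on the other strand TTTC, any 2 bases and TTTC: IFIT1 at chr10:89392373-89392622, IFIT3 at chr10:89327747-89327996 and ISG15 at chr1:1013247-1013496.
IFIT1: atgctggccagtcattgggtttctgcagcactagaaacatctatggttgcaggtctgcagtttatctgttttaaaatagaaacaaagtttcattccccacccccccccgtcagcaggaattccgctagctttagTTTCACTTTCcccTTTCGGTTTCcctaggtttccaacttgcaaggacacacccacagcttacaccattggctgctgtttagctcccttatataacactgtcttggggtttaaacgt
IFIT3: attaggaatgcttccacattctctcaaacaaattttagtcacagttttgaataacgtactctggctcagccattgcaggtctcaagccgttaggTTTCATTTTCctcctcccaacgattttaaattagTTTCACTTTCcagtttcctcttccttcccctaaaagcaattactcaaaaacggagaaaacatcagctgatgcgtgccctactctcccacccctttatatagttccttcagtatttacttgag
ISG15: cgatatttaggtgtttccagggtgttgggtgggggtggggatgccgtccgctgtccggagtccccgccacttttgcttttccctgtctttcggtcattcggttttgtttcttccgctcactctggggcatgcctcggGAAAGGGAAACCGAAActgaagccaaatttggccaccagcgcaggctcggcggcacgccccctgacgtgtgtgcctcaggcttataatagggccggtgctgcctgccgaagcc
The matches begin 116 and 103 bases before the start in IFIT1, 156 and 122 in IFIT3, and 113 and 107 in ISG15, where they overlap. Of 18 list members with a promoter entry, 11 held the motif in their window of 250 bases before to 50 after the start (61.1%), against 997 of 27305 promoters (3.65%). The 11 with the motif were IFI6, IFI27, IFI44, IFIT1, IFIT3, ISG15, MX1, OAS3, IFITM1, IFITM3 and BST2, all of them target genes and all called lower in LNCaP. Of those without it, JAK1, IRF1, IRF9 and OAS1 were called lower too, JAK2 was higher, and TYK2 and STAT2 did not pass. The list was written from known targets, and no expression value entered the share. It describes how the list was made and not these cells.

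JAK1 was read at 4.23 and 4.6 CPM in LNCaP and 108 and 98.9 CPM in RWPE (log2 -4.55 ± 0.32, adjusted p = 1.02e-11). LNCaP has been described as lacking this kinase. TYK2 and STAT2 did not pass (adjusted p = 0.386 and 0.0779), and JAK2 was higher in LNCaP at 20.9 and 20.6 CPM against 8.0 and 8.03 CPM (log2 1.37 ± 0.24, adjusted p = 2.32e-05). IRF9, the DNA-binding partner of STAT2, was at 3.91 and 3.8 CPM and 68.9 and 57.5 CPM (log2 -4.03 ± 0.59, adjusted p = 2.48e-06). The signal carriers of the pathway differed among themselves in size and sign. Of the targets with the sequences shown, IFIT1, an RNA-binding antiviral protein, was at 1.67 and 1.55 CPM and 107 and 154 CPM (log2 -6.34 ± 0.89, adjusted p = 1.35e-06). IFIT3 was at 0.910 and 1.04 CPM and 68.2 and 93.1 CPM (log2 -6.37 ± 0.88, adjusted p = 1.06e-06), and the ubiquitin-like ISG15 at 30.8 and 31.3 CPM and 232 and 391 CPM (log2 -3.33 ± 0.55, adjusted p = 1.36e-05). MX1, an antiviral GTPase (-4.31), OAS2, which senses double-stranded RNA (-7.8), and BST2, which tethers viruses (-6.02), were lower too. RWPE replicate 2 was above replicate 1 in IFIT1, IFIT3 and ISG15 and not in BST2. IFI6 (-1.9) and IFITM2 (-0.69) were called lower. Both lost the call without either LNCaP library, IFI6 also without RWPE replicate 1 and IFITM2 without RWPE replicate 2.

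Antigen presentation by MHC class I, which interferon raises, had 11 of 16 genes lower in LNCaP and none higher, with a median of -1.39. HLA-E, a heavy chain, was at 50.2 and 47.9 CPM in LNCaP and 191 and 201 CPM in RWPE (log2 -2.0 ± 0.39, adjusted p = 1.06e-04), and B2M, the light chain, at 236 and 252 CPM and 548 and 507 CPM (log2 -1.11 ± 0.33, adjusted p = 0.00582). HLA genes resemble each other, so reads may be split between them, and the HLA-B call was lost without LNCaP replicate 1 and the TAP2 call without each of the 4 libraries. The immunoproteasome subunits PSMB8 and PSMB9 were far lower (-4.77 and -3.96), as was ERAP2, which trims peptides, at 1.27 and 1.68 CPM against 73.9 and 84.7 CPM. TAP1 and TAPBP, which transport and load peptides, did not pass (adjusted p = 0.235 and 0.696). Of 19 NF-kappaB targets and cytokines tested 10 were lower and none higher. IL1A and IL18 were at 36.1 and 36.1 and 39.3 and 57.4 CPM in RWPE and under 0.3 CPM in LNCaP, LCN2 was at 0.614 and 1.17 CPM against 129.7 and 68.2 CPM, and NFKBIA did not pass at 53.8 and 52.4 CPM and 56 and 59.3 CPM (adjusted p = 0.736).

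**Figure D3:**
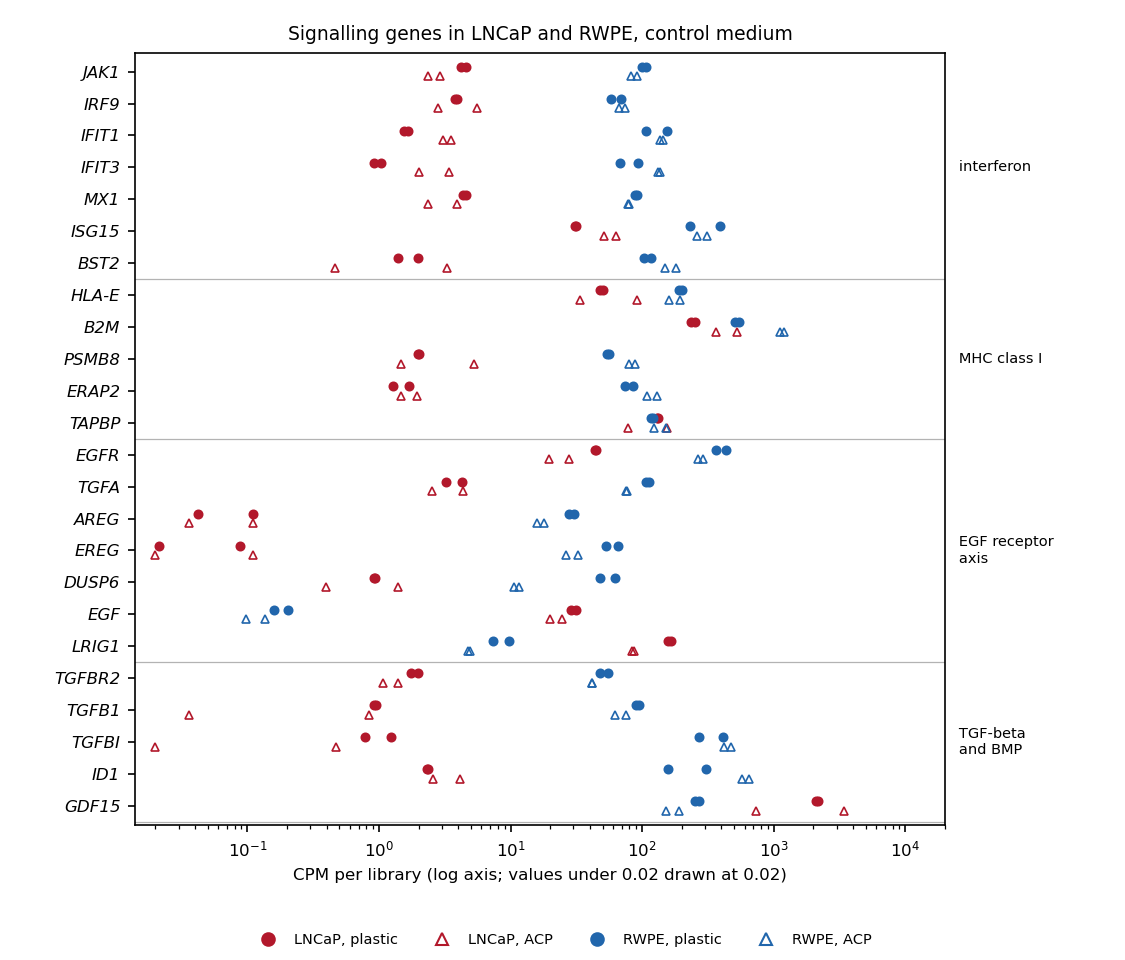
CPM in each library (horizontal log axis; values under 0.02 drawn at 0.02) for interferon, MHC class I, EGF receptor and TGF-beta genes, with LNCaP in red, RWPE in blue, plastic as filled circles and ACP as open triangles. JAK1, IFIT1 and AREG are far lower in LNCaP on both surfaces, TAPBP overlaps or nearly so, and EGF, LRIG1 and GDF15 are higher in LNCaP.

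TGF-beta and BMP signalling genes were called in both directions. Of 21 genes 12 were lower in LNCaP and 6 higher, with a median of -2.15. Over all genes tested 27.8% were lower and 29.5% higher, so the higher calls were near that share. The receptor TGFBR2 was at 1.99 and 1.75 CPM in LNCaP and 47.9 and 54.8 CPM in RWPE (log2 -4.78 ± 0.36, adjusted p = 3.22e-11), and the ligand TGFB1 at 0.910 and 0.951 CPM and 94.2 and 89.9 CPM (log2 -6.62 ± 0.57, adjusted p = 4.6e-10). The target TGFBI was at 0.783 and 1.24 CPM and 272 and 411 CPM, and the BMP targets ID1 and ID3 differed by -6.63 and -3.35, while the related ID2 was higher in LNCaP (1.97, or 2.7 without RWPE replicate 2). The shared mediator SMAD4 was slightly higher in LNCaP (log2 0.66 ± 0.16, adjusted p = 8.0e-04), and of the inhibitors the pseudoreceptor BAMBI was higher (2.08) and FST, follistatin, lower (-6.17). The coreceptor TGFBR3 was called higher (1.25), a call lost without LNCaP replicate 2 or RWPE replicate 1. GDF15, a secreted stress cytokine, was at 2183 and 2097 CPM in LNCaP and 269.6 and 251 CPM in RWPE (log2 3.04 ± 0.5, adjusted p = 1.21e-05).

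Fewer DNA replication genes than mitotic genes were called. Of 20 DNA replication genes 17 did not pass, and PCNA, the sliding clamp, was at 90.8 and 115 CPM and 152 and 141 CPM (adjusted p = 0.169). On simulated counts for this comparison, 36.5% of genes with a log2 change of 1 were recovered and 85% of those with a change of 2, so differences of the size seen for most replication genes were not reliably detectable. Of 20 mitotic genes 10 were lower in LNCaP and 1 higher, with a median of -1.13. Over all genes tested 27.8% were lower and 29.5% higher. AURKA, a spindle kinase, was at 36.6 and 37.7 CPM and 198 and 215 CPM (log2 -2.48 ± 0.35, adjusted p = 1.42e-06), and TOP2A at 80.2 and 107 CPM and 364 and 335 CPM (log2 -1.9 ± 0.54, adjusted p = 0.00404). CDK1 was the 1 called higher (1.12), and it lost the call without each of the 4 libraries, while MKI67 (-1.88) lost its call without LNCaP replicate 1. Of G1 regulators, CCND2 was read almost only in RWPE at 134 and 122 CPM, against 0.444 and 0.508 CPM, and CCND1 was higher in LNCaP at 509 and 499 CPM against 175 and 219 CPM (log2 1.36 ± 0.24, adjusted p = 3.15e-05). CDKN2A, whose product p16 is known to be high where papillomavirus genes disable RB, was at 23.2 and 23.4 CPM and 446 and 461 CPM (log2 -4.28 ± 0.31, adjusted p = 2.38e-11). CDKN1A, p21, was at 334 and 336 CPM and 1249 and 1212 CPM (log2 -1.88 ± 0.31, adjusted p = 1.43e-05).

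Of 14 mismatch repair and tumour suppressor genes 7 were lower in LNCaP (4 without LNCaP replicate 1) and 2 higher. Over all genes tested 27.8% were lower and 29.5% higher, and no shared deficit is read from this list. MSH6, which takes part in recognising mismatches, was at 49.6 and 58.1 CPM in LNCaP and 111 and 106 CPM in RWPE (log2 -1.01 ± 0.18, adjusted p = 3.34e-05), and MSH3, of the same family, was lower too (-0.71). PMS2, which acts after recognition, was higher in LNCaP at 54.2 and 55.8 CPM against 25.3 and 25.2 CPM (log2 1.12 ± 0.18, adjusted p = 1.16e-05). CHD1, a chromatin remodeller that some prostate cancers lose, was at 28.5 and 27.1 CPM and 80.8 and 84.7 CPM (log2 -1.57 ± 0.29, adjusted p = 4.94e-05).

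Genes of lipid synthesis were mostly higher in LNCaP, grown with serum, than in RWPE, grown without it. Of 14 fatty acid genes 10 were higher and 1 lower, with a median of 1.88. FASN, fatty acid synthase, was at 2598 and 3318 CPM in LNCaP and 487 and 542 CPM in RWPE (log2 2.52 ± 0.29, adjusted p = 6.12e-08). ACLY and ACACA, which supply its substrates, were at 815 and 823 and 548 and 604 CPM in LNCaP and at 243 and 235 and 145 and 148 CPM in RWPE, with differences of 1.78 and 1.98. The desaturase FADS2 was at 882 and 922 CPM and 30.6 and 35.4 CPM (log2 4.77 ± 0.27, adjusted p = 3.42e-13), and the elongase ELOVL5 at 1487 and 1346 CPM and 113 and 128 CPM (log2 3.56 ± 0.25, adjusted p = 1.22e-11). SCD, the main desaturase of saturated fatty acids, did not pass (adjusted p = 0.125). ACSS2 was the 1 called lower (-0.76), and it lost the call without replicate 2 of either line, as did FADS1 among the higher ones, while THRSP lost its call without RWPE replicate 2. Of 19 cholesterol genes 10 were higher and 4 lower. FDFT1, squalene synthase, was at 303 and 309.5 CPM and 115 and 120.0 CPM (log2 1.39 ± 0.24, adjusted p = 2.95e-05), and INSIG1, which holds back the activation of the sterol-sensing factors, at 111 and 121 CPM and 31.2 and 30.3 CPM (log2 1.92 ± 0.2, adjusted p = 1.04e-08). SREBF2, the factor that drives the pathway, was higher as well (1.05). On the other side, SQLE, which oxidises squalene, was lower in LNCaP (-0.86), and STARD4, which carries cholesterol within the cell, was at 20.4 and 19.7 CPM and 80.9 and 74.3 CPM (log2 -1.95 ± 0.34, adjusted p = 2.49e-05).

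**Figure D4:**
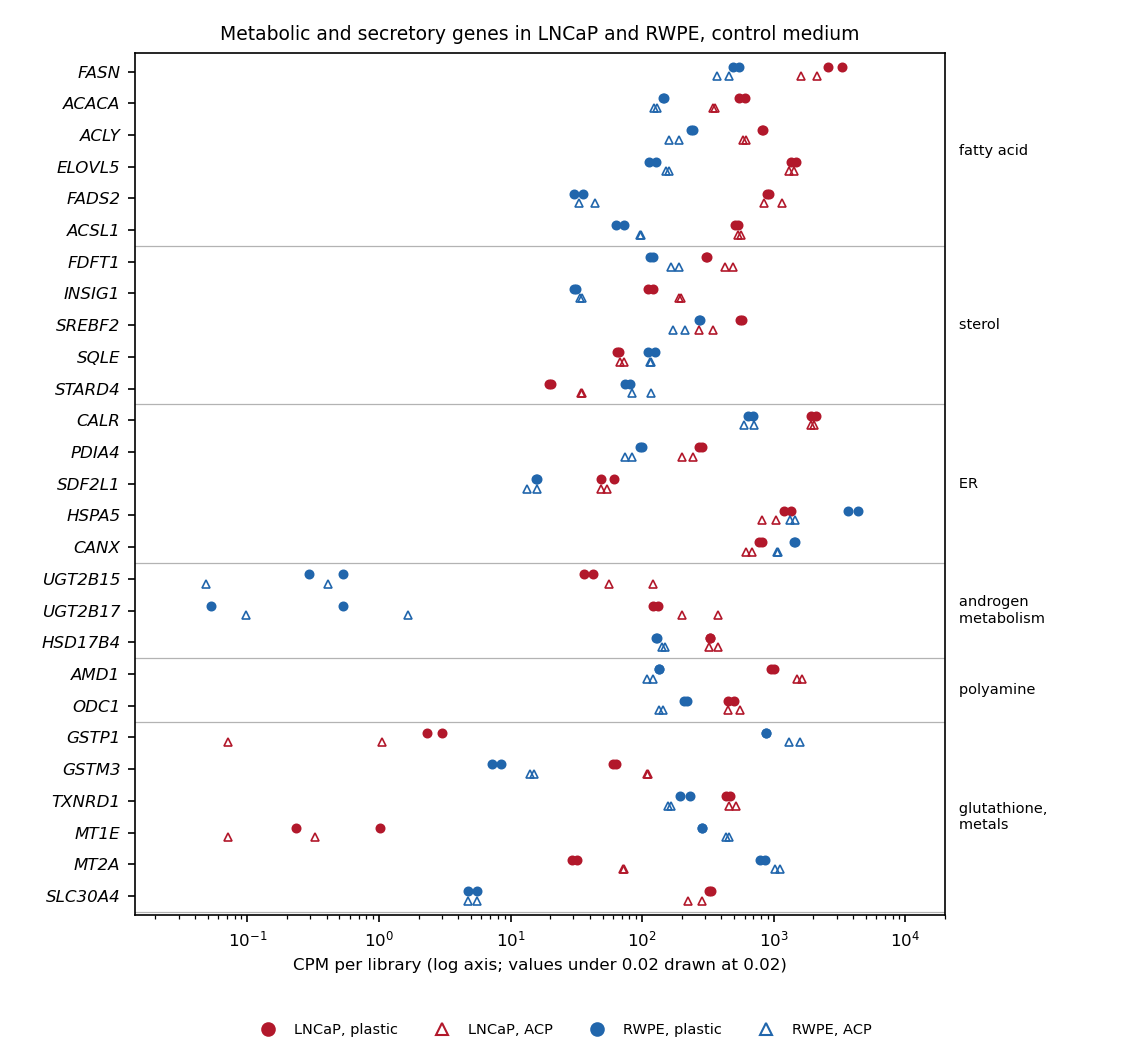
CPM in each library (horizontal log axis) for lipid, endoplasmic reticulum, androgen metabolism, polyamine, glutathione and metal genes, with LNCaP in red, RWPE in blue, plastic as filled circles and ACP as open triangles. FADS2, AMD1 and SLC30A4 lie far to the right in LNCaP, GSTP1 and MT1E in RWPE, and HSPA5 is higher in RWPE although most endoplasmic reticulum genes are higher in LNCaP.

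Of 15 androgen metabolism genes tested 14 were higher in LNCaP and none lower, with a median of 3.02. Among them were UDP-glucuronosyltransferases, which inactivate androgens by conjugation. UGT2B17 was at 131 and 120.1 CPM in LNCaP and 0.0532 and 0.532 CPM in RWPE (log2 8.7 ± 1.11, adjusted p = 2.85e-07, or 7.85 without RWPE replicate 1 and 11.09 without replicate 2), and UGT2B15 at 42.2 and 35.9 CPM and 0.292 and 0.532 CPM (log2 6.55 ± 0.64, adjusted p = 4.42e-09). The UGT2B genes are close copies of each other, so reads of the scarcer ones, such as UGT2B4 and UGT2B7, may be misassigned, and those 2 calls were lost without replicate 1 of either line. HSD17B4, an oxidative enzyme of peroxisomes, was at 330.3 and 326 CPM and 129.7 and 128 CPM (log2 1.35 ± 0.18, adjusted p = 4.8e-07). SRD5A3, of the reductase family, was higher (1.29), and SRD5A1, which makes dihydrotestosterone, was called at 0.49 and lost the call without each of the 4 libraries. CYP11A1, which starts steroid synthesis from cholesterol, had 282 and 249 reads in LNCaP and 1 and 1 in RWPE.

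The secretory pathway was mostly higher in LNCaP. Of 20 endoplasmic reticulum genes 14 were higher and 2 lower, with a median of 0.81. CALR, a chaperone of glycoproteins, was at 2094 and 1929 CPM and 693 and 642 CPM (log2 1.59 ± 0.18, adjusted p = 5.83e-08), and PDIA4, which forms disulfide bonds, at 282 and 272 CPM and 100.1 and 96.1 CPM (log2 1.5 ± 0.21, adjusted p = 1.04e-06). SEC24D, a coat protein of export vesicles, and SDF2L1, a stress-induced chaperone component, differed by 2.04 and 1.81. The exceptions were HSPA5, the master chaperone BiP, at 1346 and 1197 CPM against 4343 and 3642 CPM (log2 -1.65 ± 0.26, adjusted p = 6.29e-06), and CANX (-0.85). Smaller calls were less stable. That of ATF6 was lost without each of the 4 libraries, that of PDIA5 without replicate 1 of either line, that of PDIA6 without LNCaP replicate 1 and that of DNAJB9 without replicate 2 of either line. Polyamines, which the prostate secretes in large amounts, had 6 of 11 genes higher and 1 lower. AMD1, which supplies the aminopropyl groups, was at 1012 and 945 CPM and 135 and 135 CPM (log2 2.86 ± 0.34, adjusted p = 1.05e-07), and ODC1, the first enzyme, at 501 and 450.2 CPM and 221 and 209 CPM (log2 1.14 ± 0.22, adjusted p = 7.04e-05). SMOX, which oxidises spermine, was the 1 that was lower (-1.66). Without RWPE replicate 1 the count of higher genes was 3, as the OAZ1, SRM and PAOX calls were lost.

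Detoxification genes showed single large differences in each direction. Of 22 glutathione and oxidative stress genes tested 10 were lower in LNCaP and 7 higher. Over all genes tested 27.8% were lower and 29.5% higher. GSTP1, a glutathione transferase known to be silenced by promoter methylation in prostate cancer, was at 3.03 and 2.32 CPM in LNCaP and 878 and 878 CPM in RWPE (log2 -8.36 ± 0.6, adjusted p = 1.51e-11). GSTM3 was higher in LNCaP at 60.3 and 63 CPM against 7.18 and 8.39 CPM, and TXNRD1, thioredoxin reductase, at 464 and 434 CPM against 193 and 231 CPM (log2 1.08 ± 0.17, adjusted p = 9.62e-06). NQO1, a readout of the NRF2 response, did not pass at 131 and 126 CPM and 130.0 and 127 CPM (adjusted p = 1). Of 11 zinc and metallothionein genes tested 4 were lower and 3 higher, near the shares over all genes. The metallothioneins MT1E and MT2A were at 283 and 285 and 788 and 863 CPM in RWPE and at 0.233 and 1.02 and 32.1 and 29.4 CPM in LNCaP, and MT1G went the other way (6.18), with the caution that these small genes resemble each other. SLC30A4, a zinc exporter, was at 322 and 331 CPM in LNCaP and 4.78 and 5.6 CPM in RWPE (log2 5.97 ± 0.43, adjusted p = 1.92e-11). Of 17 glycolysis and hypoxia genes 5 were higher and 6 lower, near the shares over all genes. SLC2A1, the glucose transporter GLUT1, was lower in LNCaP at 79 and 66.2 CPM against 346 and 326 CPM (log2 -2.21 ± 0.19, adjusted p = 4.97e-10), PGK1 and PDK1 were higher (1.34 and 2.29), and LDHA did not pass (adjusted p = 0.826).

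Most positional identity genes were lower in LNCaP. Of 36 HOX genes tested 23 were lower in LNCaP and 6 higher, with a median of -3.76. In the D cluster HOXD11 had 0 and 3 reads in LNCaP and 740 and 720 in RWPE and HOXD9 had 2 and 1 and 480 and 421, while HOXD8 differed by -6.69 and HOXD13 by -6.18 (-6.91 without LNCaP replicate 1). HOXA9 was at 0.0635 and 0.177 CPM in LNCaP and 37 and 30.9 CPM in RWPE (log2 -8.1 ± 0.45, adjusted p = 1.95e-12, or -8.99 without LNCaP replicate 2). The C cluster held genes of both directions. HOXC6, HOXC4 and HOXC12 were higher in LNCaP (1.51, 2.3 and 4.26, HOXC12 at 5.2 without RWPE replicate 2), HOXC8 was lower (-6.17) and HOXC11 had 1 and 1 reads in LNCaP against 160 and 155 in RWPE. HOXC5, HOXC9, HOXC10 and HOXC13 did not pass. Of 83 cytosolic ribosomal protein genes 26 were lower (17 without LNCaP replicate 1) and 6 higher (3 without LNCaP replicate 2), with a median of -0.46. The variant RPL22L1 was higher in LNCaP at 182 and 194 CPM against 17.3 and 16.1 CPM (log2 3.49 ± 0.29, adjusted p = 2.96e-10), and the variant RPL39L was lower at 0.0423 and 0.111 CPM against 30.7 and 31.5 CPM (log2 -8.6 ± 0.45, adjusted p = 8.41e-14, or -9.4 without LNCaP replicate 2). Ribosomal protein genes have many processed pseudogenes, which can take reads. Of 37 complex I genes of the respiratory chain 14 were higher and 6 lower, with NDUFB2 at 1.82 and NDUFV2 at 1.54. For comparison, 29.5% of all genes tested were higher and 27.8% lower. Of 11 neuroendocrine genes, which mark another form of prostate cancer, 2 were higher and 2 lower, with a median of -0.03. SYP, a synaptic vesicle protein, was higher at 2.88 and 2.61 CPM in LNCaP against 0.452 and 0.861 CPM in RWPE. The other higher call, of ENO2 (1.12), was lost without LNCaP replicate 2 or either RWPE library. The lower members SCG5 and CHGB differed by -5.1 (-6.02 without LNCaP replicate 2) and -2.84.

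The low side of many of these differences was not at 0. For 159 genes at 20 CPM or more in LNCaP and a log2 difference of at least 5, RWPE replicate 2 lay above replicate 1 in 141 (88.7%), with medians of 0.76 and 0.425 CPM. The median level in RWPE was 0.676% of that in the highest line of the series on plastic. For the 302 genes of the reverse kind, LNCaP replicate 2 lay above replicate 1 in 210 (69.5%), with medians of 0.619 and 0.55 CPM, and the median level was 0.789% of the highest line. On ACP the low line stood at a median of 1.01% and 0.474% of the high line for the same 2 sets. These low levels set how large a log2 difference can become. Whether cells or other libraries supplied those reads was not tested.

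The line difference was measured again on ACP in 4 separate libraries. There 9883 genes were called (57.1%), 4832 higher (27.9%) and 5051 lower (29.2%) in LNCaP. Of the genes called higher on plastic 4196 were also called higher on ACP, which is 82.1% of the plastic calls and 86.8% of the ACP calls. Of those called lower 4101 were shared, 85.1% and 81.2%, and 5 genes were called in opposite directions. The basal list had 17 members lower on ACP and none higher, and the interferon list had 21 lower and 1 higher. KLK3 was at 2144 and 3247 CPM in LNCaP and 8.53 and 5.95 CPM in RWPE on ACP (log2 8.53), KRT5 at 0 and 7.6 CPM and 10166 and 8106 CPM (log2 -11.23), and IFIT1 at 3.08 and 3.55 CPM and 137 and 145 CPM (log2 -5.41). LNCaP ACP replicate 1 had 0 reads of KRT5 and replicate 2 had 208, so low levels varied more there. FKBP5 and NDRG1 were lower in LNCaP on ACP too (log2 -2.08 and -2.42).

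**Figure D5:**
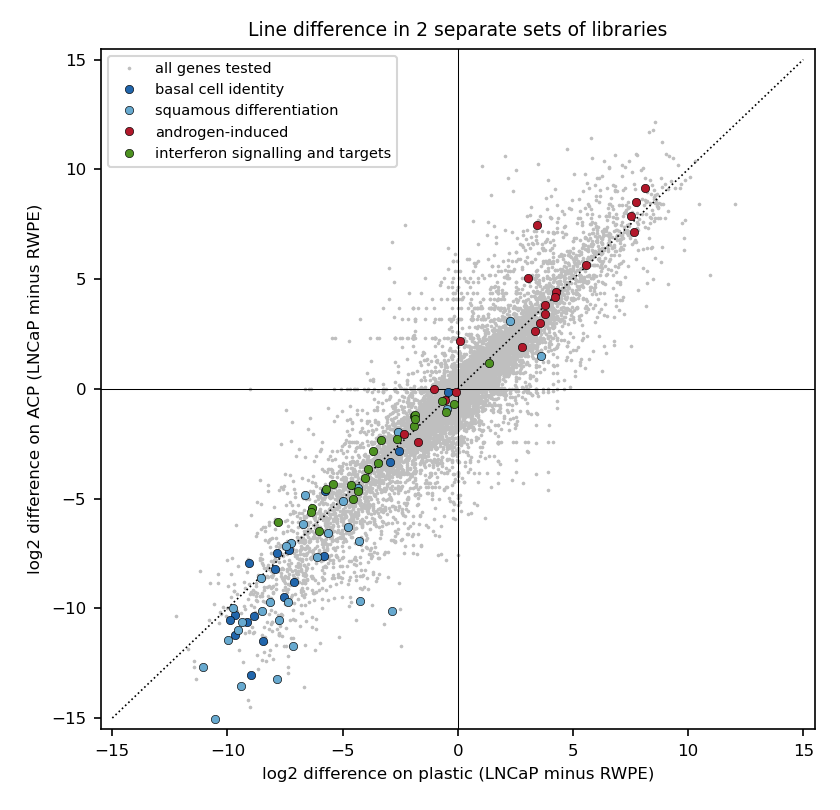
Log2 difference between LNCaP and RWPE on plastic (horizontal) and on ACP (vertical) for all 17313 genes tested (grey) and 4 lists (coloured), with a dotted line where both are equal. The basal, squamous and interferon genes lie in the lower left and most androgen-induced genes in the upper right on both surfaces.

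The difference between the line differences was called for 21 genes (0.121%), 20 higher (0.116%) and 1 lower (0.00578%) on plastic than on ACP, and 1617 genes had an unadjusted p under 0.05. The split by direction was not stable, at 1 higher and 5 lower without LNCaP ACP replicate 1, 8 and 4 without RWPE plastic replicate 2, 79 and 39 with DESeq2, 69 and 31 without a count filter and 231 and 62 in a fit of the compared groups only. Of the genes with at least 50 CPM in a group, C3, CYBA and PARP6 had the largest values. C3, the central complement component, was at 3.83 and 3.18 CPM in LNCaP and 22.9 and 16.2 CPM in RWPE on plastic, and at 0.0358 and 0 CPM and 83.4 and 68.8 CPM on ACP. Its line difference was -2.48 on plastic and -11.72 on ACP, a change of 9.24 (adjusted p = 5.97e-08), and LNCaP on ACP had 1 read of C3 in all. C3 is made mainly by liver, and the liver markers, whose sum was lower on ACP than on plastic in both lines as given above, were not tested for a part in this change. VCaP and MDAPCa2a, the other prostate cancer lines of the series, had 3.59 and 4.12 CPM and 4.26 and 2.18 CPM of C3 on plastic in control medium, near the LNCaP level. CYBA, a subunit of NADPH oxidase, went from -5.88 on plastic to -9.58 on ACP and PARP6 from -6.76 to -10.21. LNCaP was at 0.614 and 1.06 CPM for CYBA and 0.339 and 0.597 CPM for PARP6 on plastic, and at 0 and 0.183 CPM and 0.0358 and 0.0366 CPM on ACP. LNCaP on plastic in charcoal-stripped serum was below both plastic control libraries in all 3 genes. Levels there were 0.129 and 0 CPM for C3, 0.0514 and 0.0511 CPM for CYBA and 0.154 and 0.204 CPM for PARP6. That group was grown in another serum than the control libraries, and the part of surface or serum in these low levels was not tested. The count of such genes fell to 1 without LNCaP plastic replicate 2 or RWPE ACP replicate 1, to 3 without RWPE plastic replicate 1, and to 6 without LNCaP ACP replicate 1 or RWPE ACP replicate 2. It was 12 without RWPE plastic replicate 2 and 13 without LNCaP plastic replicate 1, and it rose to 38 without LNCaP ACP replicate 2. Day, surface and library set change together between these groups and cannot be told apart.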

How the data were processed

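Poly(A)-selected RNA of 34 cultures was sequenced, and the authors deposited whole-number read counts per gene symbol in 1 table of 26336 genes, not normalized and with replicates not pooled. The submitters' processing notes name STAR, HTSeq and hg19. Versions, the annotation, filters and whether strand was used are not stated in the labels or headers. All columns matched a labelled sample.

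Genes were tested with edgeR 4.0.16 in R 4.3.3 (quasi-likelihood F test after TMM scaling and filterByExpr at a minimum count of 10), fitted to all 34 libraries in 17 groups with 17 residual degrees of freedom. The threshold was a Benjamini-Hochberg adjusted p of 0.05, and standard errors are the log2 difference divided by the square root of F. Genes with date-like RWPE counts on plastic, 44562 to 44926 and at least 5 times every RWPE library on ACP, were left out. A count of 0 was bounded at 3 counts over a group. Named genes were the 12 largest rises and falls with at least 100 CPM and no overlap, members of the lists, the 5 most abundant genes per line with 0 reads in the other, and, for the difference between surfaces, the 3 largest in each direction with at least 50 CPM. A Y-linked gene and items on a withheld list are not reported, though counts include them. The members and lists were chosen with earlier results of these data known. Promoter windows are RefSeq entries of GRCh38.p14, another build than the counts use, and 18 of 23 interferon and 14 of 20 androgen-induced genes matched. On simulated counts for the plastic comparison, the fit recovered 73 of 200 genes changed by log2 1 (17124 genes, 7 false calls) and 170 of 200 changed by log2 2 (17118 genes, 8 false calls). Alternatives were RLE factors, library totals, no count filter, DESeq2 1.42.0, a fit of the compared groups only, a replicate block, the date-like genes kept, removal of genes under 0.5% of another line, a log2 difference of at least 1, and each library left out.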

Additional observations from a re-analysis of the deposited data

Results flagged for a closer look

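The line difference itself differed between the surfaces in 21 genes by the test of that difference, and 6 of them are listed here. That set of calls depended on single libraries, as given above. C3 had a difference of differences of log2 9.24, the line difference being -2.48 on plastic and -11.72 on ACP (adjusted p = 5.97e-08). CYBA had 3.70, PARP6 3.45, TIMP1 3.39 and CYP1B1 3.41, with adjusted p-values of 0.0343, 0.0343, 0.0124 and 0.0124. In TIMP1, an inhibitor of metalloproteases, LNCaP was at 0.889 and 0.973 CPM on plastic and 0.0358 and 0.146 CPM on ACP, and RWPE at 70.0 and 73.0 CPM and at 82.3 and 69.7 CPM. In CYP1B1, a cytochrome P450, LNCaP was at 1.57 and 1.35 CPM on plastic and 0.0716 and 0.183 CPM on ACP, with RWPE between 22.1 and 33.5 CPM on both surfaces. COL3A1, a fibrillar collagen, had -6.24 (adjusted p = 0.0343), with 1 read in total in RWPE on ACP and 105 and 53 reads on plastic, against 88 in each LNCaP plastic library and 74 and 22 on ACP. It was the only gene of the 21 called in that direction, whereas 5 of 6 calls had that direction without LNCaP ACP replicate 1 and 39 of 118 did with DESeq2. In the 5 other genes LNCaP was lower on ACP than on plastic, and the mean RWPE level went from 19.6 to 76.1 CPM in C3, from 49.6 to 72.9 CPM in CYBA, from 71.5 to 76.0 CPM in TIMP1, from 51.0 to 48.1 CPM in PARP6 and from 27.8 to 26.5 CPM in CYP1B1. LNCaP on plastic in stripped serum was also below both plastic control libraries in these 5 genes, with 0.0771 and 0.102 CPM in TIMP1 and 0.154 and 0.255 CPM in CYP1B1.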

How the results depend on the processing

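The count of genes differing between the lines on plastic stayed within 1.5 times of 9933 under all alternatives run, from 7203 with a log2 difference of at least 1 to 12425 in a fit of the compared groups only, and was 8271 to 8432 without 1 library. On ACP it was 8343 to 8557 without 1 library. A replicate block gave 10191 on plastic. The numbers did not pair the samples: the deviations of same-numbered LNCaP and RWPE libraries correlated at -0.044 on plastic and -0.043 on ACP. For the difference between surfaces the block gave 27 genes. That count was 21 as reported, 118 with DESeq2, 293 in a fit of the compared groups only, 100 without a count filter and 1 to 38 without 1 library. The cause was not tested, and the compared groups alone leave fewer residual degrees of freedom. The biological coefficient of variation was 7.6% in the compared plastic groups alone and 19.9% over all 34 libraries. It was not computed for the plastic and ACP groups together. Of 813 named genes, none changed direction past the threshold. DESeq2 moved 23 below the threshold and 24 above it, and 36 and 15 moved above and below without a count filter. Another scaling moved the median of all genes from 0.01 to -0.04 (RLE) or 0.11 (library totals). Depth limits genes near 0: 3 counts over a group correspond to 0.0324 CPM in LNCaP and 0.0389 in RWPE on plastic. Only 2 libraries per group were compared, and medium and line change together.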
